A study of Rattus norvegicus with 12 samples.

Results

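The genes described here are 10 that carry calcium out of the cytosol of neurons and glia or let it out of internal stores: the plasma membrane pumps Atp2b1, Atp2b2 and Atp2b4, the sodium/calcium exchangers Slc8a1, Slc8a2 and Slc8a3, the endoplasmic reticulum pump Atp2a2, the store release channels Itpr1 and Ryr2, and the mitochondrial uniporter Mcu. They were chosen by name, as 10 of the 28111 gene names in the files, and each was present as 1 row with no value at 0. Expression was measured as TPM, a length-corrected share of the transcripts in a library, by mRNA sequencing of 12 libraries of rat primary cortical neuroglial culture, a mixed culture of neurons and glia from the cortex of newborn Wistar pups. At 10 days in vitro, RNA was collected from intact cultures with no addition (control, IC) and from cultures 4 h after addition of extracellular vesicles at 10 µg/mL (EV), of 3-100 kDa proteins at 15 µg/mL or of total secretome at 45 µg/mL, with 3 libraries in each of the 4 groups. The vesicles and proteins came from glial progenitor cells derived from human induced pluripotent stem cells, so a human product was given to rat cells. No glutamate was present in these groups. The labels do not tie the libraries to separate animals or culture preparations, so p-values here measure the spread between these libraries. In these bulk samples, fewer cells of a type and less RNA per cell cannot be told apart.

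Neurons keep free calcium in the cytosol far below the level outside the cell. After a rise, plasma membrane calcium ATPases (PMCA) and sodium/calcium exchangers (NCX) export the ion, the sarco/endoplasmic reticulum ATPase (SERCA) refills the internal store, and mitochondria take up calcium through the uniporter. Inositol trisphosphate receptors and ryanodine receptors release the stored calcium again. In excitotoxicity, the injury of neurons by excess glutamate, calcium entry outruns this clearance.

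The culture label was checked against markers. All 10 neuron markers and all 8 astrocyte markers were at or above 1 TPM in every library, while the summed level of 7 microglia markers was at most 2.32 TPM, that of 5 fibroblast markers at most 1.96 TPM and that of 5 matched endothelial and mural markers at most 4.26 TPM. Some of these were listed at 0, among them Cx3cr1 and P2ry12 of microglia in every control library. The same holds in every one of the 12 libraries for Rps6, a ribosomal protein gene that every cell uses, and a value of 0 is therefore not taken as absence of expression. The first principal component, computed over 10196 genes without the calcium genes, held 31.3% of the variance and set control replicate 2 (score −42.5) and EV replicate 1 (−40.9) apart from the other libraries (−13.7 to 26.0). Read depth is unknown because TPM does not keep it.

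In the control cultures the 10 genes spanned a wide range of levels. TPM is corrected for transcript length, so the genes can be compared with each other on this scale. Atp2b1 (189 ± 13.8 TPM, SD, n = 3) and Atp2a2 (160 ± 32.6 TPM) were the most abundant and lay above 94.5% and 93.3% of the 11935 genes with at least 1 TPM in all control libraries. Slc8a1 followed at 63.4 ± 24.5 TPM, then Atp2b2 at 37.1 ± 8.18, Atp2b4 at 34.4 ± 0.762, Slc8a2 at 30.3 ± 5.13 and Mcu at 27.7 ± 2.26 TPM. The lowest levels were those of Itpr1 (14.4 ± 4.50 TPM), Slc8a3 (12.4 ± 2.97 TPM) and Ryr2 (6.19 ± 2.35 TPM). Neighbours in this order overlapped between libraries, except that every Atp2a2 value lay above every Slc8a1 value, every Mcu value above every Itpr1 value, and every Slc8a3 value above every Ryr2 value.

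The plot of TPM by library shows all values, group means and SD for the 10 genes.

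**Figure D1:**
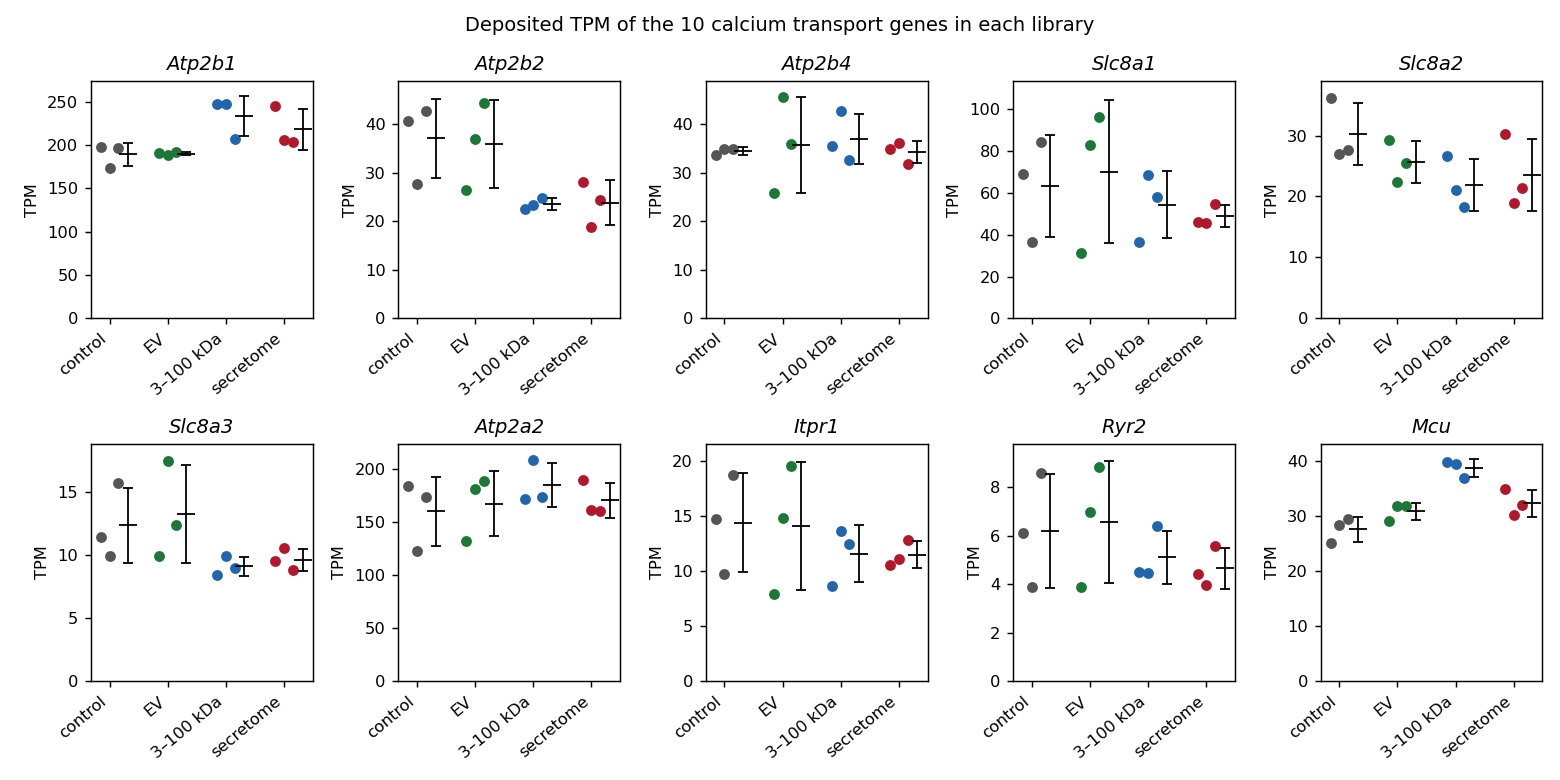
TPM of each of the 10 genes (vertical axes, linear from 0) in the 3 libraries of each group (points, in the order of replicates 1 to 3), with group means and SD (black bars). The 3 Mcu values with 3-100 kDa proteins (36.9 to 39.9 TPM) lie above all other Mcu values. Slc8a1, Itpr1 and Ryr2 are low in control replicate 2 and EV replicate 1. Slc8a1 (36.7 TPM) and Itpr1 (8.63 TPM) are also low in 3-100 kDa replicate 1.

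Atp2b1 encodes PMCA1, the widely expressed export pump. Its level was 198, 173 and 196 TPM in the control libraries, 191, 188 and 192 TPM with EV, 247, 247 and 207 TPM with 3-100 kDa proteins and 246, 205 and 204 TPM with total secretome. On TPM as deposited, all 6 libraries given 3-100 kDa proteins or total secretome were above all 6 control and EV libraries. On TPM rescaled as for the fits, that is, divided by a factor for each library that levels the typical gene, the total secretome range (206 to 229 TPM) overlapped that of control (171 to 209 TPM), and the 3-100 kDa libraries stayed above control. Against control, the difference on the log2(TPM + 1) scale was 0.33 for the 3-100 kDa proteins (95% interval 0.04 to 0.62, unadjusted p under 0.05, adjusted p = 0.224 in limma) and 0.22 for total secretome (−0.06 to 0.50, adjusted p = 0.427). With EV it was 0.0005 (−0.32 to 0.32), so a difference of more than 0.32 in either direction lay outside the interval. None of these passed the adjusted threshold of 0.05.

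Atp2b2 encodes PMCA2, a pump enriched in neurons. It had 40.7, 27.7 and 42.8 TPM in control, 26.4, 37.0 and 44.4 TPM with EV, 22.4, 23.3 and 24.8 TPM with 3-100 kDa proteins, and 28.1, 18.9 and 24.4 TPM with total secretome. On TPM as deposited the 3-100 kDa libraries were all below the control libraries, and total secretome replicate 1 lay just above control replicate 2. On rescaled TPM it was the total secretome libraries that were all below control, and the highest 3-100 kDa value lay just above control replicate 2 (27.3 against 27.2 TPM). The difference from control was −0.58 for 3-100 kDa proteins (−1.07 to −0.10, adjusted p = 0.204), −0.59 for total secretome (−1.11 to −0.08, adjusted p = 0.239) and −0.06 for EV (−0.66 to 0.54, adjusted p = 0.9998). These intervals, like those of the other genes, are from fits without the replicate number as a block. With that block, the total secretome interval was −0.91 to −0.28 (adjusted p = 0.0875 in limma). The total secretome difference is 1 of the 2 results in which an alternative passed the adjusted threshold: without control replicate 2, the library that stood apart, it was −0.80 (adjusted p = 0.0463). Atp2b2 and Atp2b1 therefore lay on opposite sides of control with the 3-100 kDa proteins, at a level that did not pass adjustment over all genes.

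The 250 bases before the annotated start of these 2 pump genes are shown because their levels lay on opposite sides of control. They come from RefSeq (build GRCr8, a later build than the rn6 transcripts used for the values), run 5′ to 3′ on the gene's strand, and carry GC boxes (GGGCGG or its reverse complement) in capitals. Atp2b1 is on the plus strand at chr7:35622211-35622460 and Atp2b2 on the minus strand at chr4:148763654-148763903.
Atp2b1: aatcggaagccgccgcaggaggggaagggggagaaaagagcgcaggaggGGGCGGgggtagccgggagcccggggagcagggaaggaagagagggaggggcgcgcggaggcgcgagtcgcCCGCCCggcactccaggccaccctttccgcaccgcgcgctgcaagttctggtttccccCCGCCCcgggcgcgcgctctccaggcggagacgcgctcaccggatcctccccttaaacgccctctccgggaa
Atp2b2: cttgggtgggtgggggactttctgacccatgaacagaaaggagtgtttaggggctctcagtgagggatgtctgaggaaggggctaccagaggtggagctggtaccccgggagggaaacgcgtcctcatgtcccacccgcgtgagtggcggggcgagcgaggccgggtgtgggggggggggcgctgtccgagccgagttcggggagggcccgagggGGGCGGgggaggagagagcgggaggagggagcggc
The Atp2b1 stretch holds 3 GC boxes, starting at positions −201, −130 and −72 from the start, and is 72.8% G or C. The Atp2b2 stretch holds 1, at −35, and is 69.2% G or C, against a median of 51.2% over the 33469 promoters in the table. A GC box was found in 30.5% of all promoters of this length. Both strands were also searched for TGACG (18.2% of all promoters), TGANTCA (6.34%) and TATAAA (12.9%), none of which is in either stretch. Of the 10 genes, 9 had an entry, and the entry for Mcu was missing. Atp2a2 and Ryr2 also held 3 GC boxes each and Slc8a3 held 1, while Slc8a1, Slc8a2, Itpr1 and Atp2b4 held 0. A link between GC boxes and levels was not tested.

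Atp2b4, which encodes the pump PMCA4, was at 33.5 to 34.9 TPM in control, 25.8 to 45.5 with EV, 32.6 to 42.6 with 3-100 kDa proteins and 31.8 to 36.2 with total secretome. Its groups overlapped in all 6 comparisons, and its largest difference from control was 0.12 (3-100 kDa proteins, adjusted p = 0.741).

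The share of each gene in the PMCA family describes the same values within a library and does not depend on how libraries are scaled. It was looked at after the levels had been seen and is given without a test. Atp2b1 made up 67.0 to 68.8% of the summed TPM of the 4 PMCA genes in control, 65.0 to 73.7% with EV, 74.6 to 76.8% with 3-100 kDa proteins and 75.0 to 75.7% with total secretome. Atp2b2 made up 11.0 to 14.6% in control, 10.2 to 15.5% with EV, 6.98 to 8.97% with 3-100 kDa proteins and 6.90 to 8.99% with total secretome. The Atp2b1 and Atp2b2 ranges in the 3-100 kDa and total secretome libraries did not overlap the control ranges. Both are shares of the same sum and are not independent, and overlap of shares was not counted over all genes. For levels as deposited, 20.6% and 20.2% of all genes did not overlap control in these comparisons. Atp2b4 made up 11.4 to 13.8% in control and 9.96 to 15.7% with EV. It made up 11.0 to 12.9% with 3-100 kDa proteins and 10.7 to 13.2% with total secretome, so its groups overlapped. The ratio of Atp2b1 to Atp2b2 was 4.86, 6.26 and 4.59 in control and 7.23, 5.08 and 4.32 with EV, against 11.0, 10.6 and 8.32 with 3-100 kDa proteins and 8.76, 10.9 and 8.35 with total secretome. Atp2b3, the paralogue not among the 10 genes, contributed 6.35 to 7.08% of the family sum in control, 5.30 to 6.41% with EV, 4.63 to 5.16% with 3-100 kDa proteins and 4.27 to 4.98% with total secretome. Its difference from control with total secretome was −0.41 on the log2(TPM + 1) scale (unadjusted p under 0.05, adjusted p = 0.252). The family sum itself overlapped between groups, at 252 to 293 TPM in control, 259 to 289 with EV, 277 to 329 with 3-100 kDa proteins and 272 to 325 with total secretome.

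**Figure D2:**
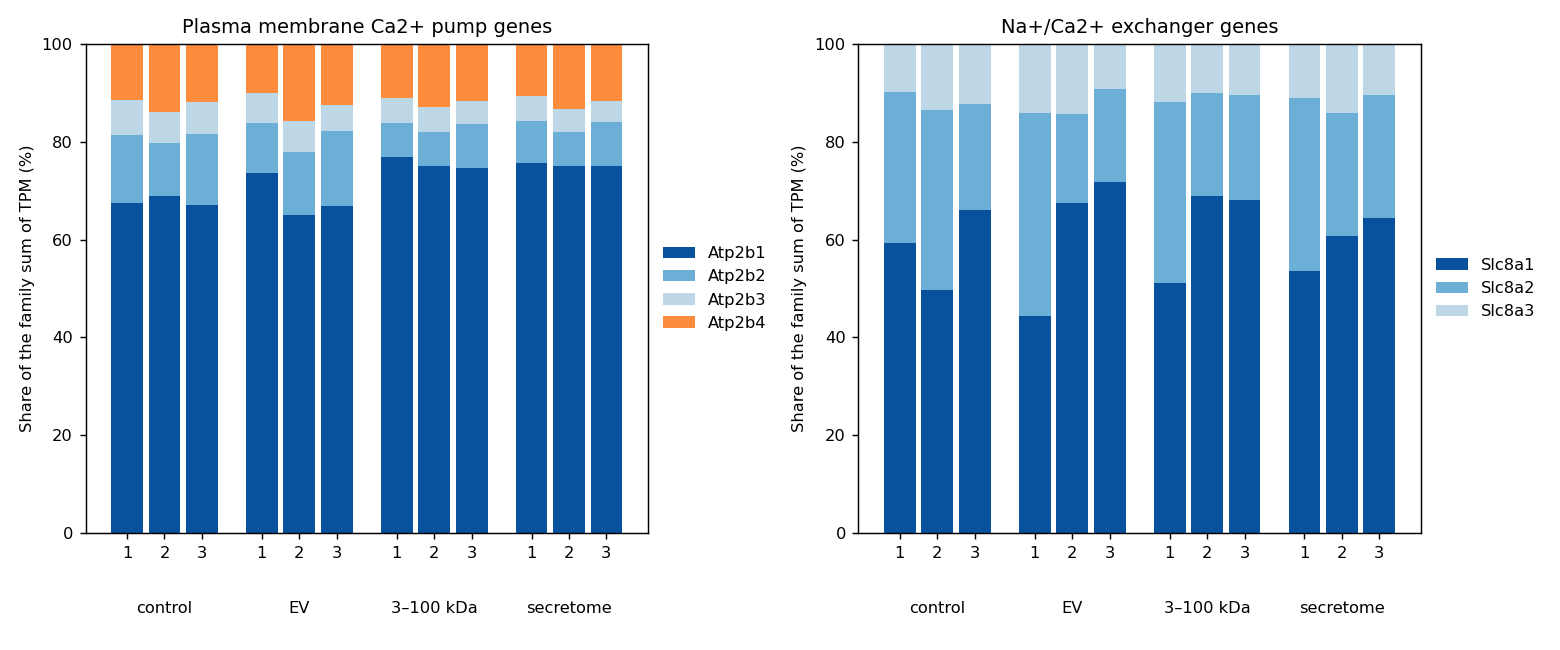
Share (%, vertical axis) of each gene in the summed TPM of the 4 PMCA genes (left) and of the 3 NCX genes (right), 1 bar per library, grouped by condition and numbered by replicate. The Atp2b1 share is 74.6 to 76.8% in the libraries given 3-100 kDa proteins and 67.0 to 68.8% in control, while the Slc8a1 share varies from 44.5 to 71.8% within the EV group.

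Marker levels in the same libraries are set beside the pump and exchanger values. The sum of the 10 neuron markers was 3874 to 4031 TPM in control, 3686 to 4053 TPM with EV, 3268 to 3823 TPM with 3-100 kDa proteins and 3161 to 3962 TPM with total secretome. Only 1 of the 10 passed the adjusted threshold for 3-100 kDa proteins against control (3.31% of all genes). It was Nefm, a neurofilament gene, which was higher (0.79, adjusted p = 0.0287 in limma). The other neuron markers differed by −0.26 (Tubb3) to 0.19 (Gad1) in that comparison. Nefm also differed from control by 0.72 with total secretome (adjusted p = 0.0628) and by 0.02 with EV (adjusted p = 0.9998). The sum of the 8 astrocyte markers was 1019 to 1465 TPM in control, 1276 to 1698 with EV, 1216 to 1613 with 3-100 kDa proteins and 1407 to 1796 with total secretome. One of them, the astrocyte filament gene Gfap, was at 85.1, 361 and 128 TPM in control, 491, 617 and 362 TPM with EV, 242, 447 and 310 TPM with 3-100 kDa proteins and 271, 635 and 408 TPM with total secretome. It differed from control by 1.58 with EV (adjusted p = 0.9998, no overlap), 1.053 with 3-100 kDa proteins (adjusted p = 0.356) and 1.40 with total secretome (adjusted p = 0.269), with an unadjusted p under 0.05 for EV and for total secretome. The other 7 astrocyte markers summed to 891 to 1167 TPM in control, 913 to 1081 with EV, 974 to 1166 with 3-100 kDa proteins and 1051 to 1161 with total secretome, and none of them had an unadjusted p under 0.05 against control in any of the 3 comparisons. The 8 oligodendrocyte lineage markers summed to 175 to 223 TPM in control, to 186 to 226 TPM with EV, to 121 to 185 TPM with 3-100 kDa proteins and to 231 to 255 TPM with total secretome. The 5 endothelial and mural markers summed to 2.45 to 4.26 TPM in control, 1.06 to 1.73 TPM with EV, 0.721 to 1.74 TPM with 3-100 kDa proteins and 1.24 to 1.61 TPM with total secretome. Most of that sum in control was Pdgfrb, a receptor gene of mural cells, at 3.18, 4.01 and 2.45 TPM in control and 0.481, 0.851 and 0.321 TPM with 3-100 kDa proteins, and it fell (−1.42, adjusted p = 0.0234). Pdgfrb was also below control with EV (−0.90, adjusted p = 0.743) and with total secretome (−0.92, adjusted p = 0.0912). Flt1 of the same list lay the other way, at most 0.0304 TPM in control and 0.234 to 0.399 TPM with 3-100 kDa proteins. The 5 fibroblast markers summed to 0.270 to 0.698 TPM in control, 0.576 to 1.71 TPM with EV, 1.42 to 1.96 TPM with 3-100 kDa proteins and 0.909 to 1.90 TPM with total secretome. The collagen gene Col1a1 among them differed by 1.10 with 3-100 kDa proteins (adjusted p = 0.0567). Over all libraries, 4 proliferation markers summed to 62.5 to 171 TPM and 6 muscle markers to 3.46 to 7.72 TPM. No share over all genes was computed for marker sums, so overlap or separation of these ranges is not read as a result. The part of cell makeup in the values of the 10 genes was not tested.

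Slc8a1 encodes NCX1, a high-capacity exchanger found in neurons and glia. Its levels were 69.2, 36.6 and 84.5 TPM in control, 31.4, 82.8 and 96.4 TPM with EV, 36.7, 68.4 and 57.9 TPM with 3-100 kDa proteins, and 45.9, 45.6 and 54.9 TPM with total secretome. The spread within groups was wide, with a coefficient of variation of 38.6% in control and 48.9% with EV, and all groups overlapped. The difference from control was 0.07 for EV (−1.05 to 1.18), −0.15 for 3-100 kDa proteins (−0.998 to 0.694) and −0.28 for total secretome (−1.01 to 0.45), so a doubling or a halving with EV lay inside the interval.

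Slc8a2 encodes NCX2, an exchanger expressed mainly in brain. It was at 36.2, 27.0 and 27.6 TPM in control, 29.3, 22.4 and 25.4 TPM with EV, 26.6, 21.0 and 18.2 TPM with 3-100 kDa proteins, and 30.2, 18.9 and 21.4 TPM with total secretome. The 3-100 kDa libraries were below all control libraries by a narrow margin (26.6 against 27.0 TPM, or 25.8 against 26.4 rescaled). The difference from control was −0.42 for 3-100 kDa proteins (−0.80 to −0.04, adjusted p = 0.244), −0.35 for total secretome (−0.76 to 0.06, adjusted p = 0.386) and −0.23 for EV (−0.66 to 0.19, adjusted p = 0.9998).

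Slc8a3, which encodes NCX3, was at 11.4, 9.95 and 15.7 TPM in control, 9.90, 17.5 and 12.4 TPM with EV, 8.44, 9.94 and 8.93 TPM with 3-100 kDa proteins, and 9.51, 10.5 and 8.81 TPM with total secretome. The highest 3-100 kDa value and the lowest control value almost touched, and the difference was −0.35 (−0.88 to 0.17, adjusted p = 0.495). The 3 exchangers together summed to 73.5 to 128 TPM in control, 70.6 to 134 TPM with EV, 71.8 to 99.4 TPM with 3-100 kDa proteins and 75.0 to 85.6 TPM with total secretome, so the groups overlapped.

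Atp2a2 encodes SERCA2, the reticulum pump of most cells. Its paralogues Atp2a1 and Atp2a3 were listed at 0 in most libraries and together made up at most 0.360% of the family sum as listed. Atp2a2 was at 184, 123 and 174 TPM in control, 132, 181 and 188 TPM with EV, 172, 209 and 174 TPM with 3-100 kDa proteins, and 190, 162 and 160 TPM with total secretome. The groups overlapped, and the difference from control ranged from 0.06 (EV) to 0.25 (3-100 kDa proteins, adjusted p = 0.556).

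Itpr1, the inositol trisphosphate receptor that predominates in neurons, was at 14.7, 9.74 and 18.7 TPM in control and at 7.94, 14.8 and 19.5 TPM with EV. With 3-100 kDa proteins it was at 8.63, 13.6 and 12.47 TPM and with total secretome at 10.5, 11.1 and 12.8 TPM. Ryr2, a ryanodine receptor of heart and brain, was at 6.12, 3.88 and 8.58 TPM in control and at 3.87, 6.99 and 8.82 TPM with EV. With 3-100 kDa proteins Ryr2 was at 4.48, 4.46 and 6.38 TPM and with total secretome at 4.42, 3.95 and 5.59 TPM. For both genes every pair of groups overlapped, and the differences from control ranged from −0.29 to 0.06. Ryr2 was the main ryanodine receptor, at 63.5 to 80.4% of the sum of the 3 Ryr genes, followed by Ryr3. Itpr3 was at most 0.472 TPM in any library, and no row was matched to Itpr2.

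Mcu forms the pore of the mitochondrial calcium uniporter. Its level was 25.1, 28.4 and 29.5 TPM in control, 29.1, 31.8 and 31.8 TPM with EV, 39.9, 39.6 and 36.9 TPM with 3-100 kDa proteins, and 35.0, 30.2 and 32.03 TPM with total secretome. All 3 libraries given the 3-100 kDa proteins were above all 9 others. The total secretome libraries were above control on TPM as deposited but overlapped it on rescaled TPM (30.2 against 31.4). The difference from control was 0.51 for 3-100 kDa proteins (0.16 to 0.85, a 1.42-fold higher level, adjusted p = 0.129), 0.24 for total secretome (−0.10 to 0.58, adjusted p = 0.474) and 0.15 for EV (−0.22 to 0.52, adjusted p = 0.9998). In a fit of all 12 libraries with a shared spread, the difference for 3-100 kDa proteins was 0.50 with an adjusted p of 0.0277, a call that the fit of the 6 libraries compared did not make. Mcub, the inhibitory paralogue, was at 0.240 to 1.78 TPM over all libraries.

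Of the 3 comparisons with control, that with EV had the narrowest range of differences. None of the 10 genes had an adjusted p under 0.05 in limma (0.141% of 12749 genes did), none had an unadjusted p under 0.05 (2.82% of all genes), none combined that p with a change of 1.5-fold (2.16%), and in none were the libraries free of overlap, on TPM as deposited (5.1%) or rescaled (6.16%). The differences ran from −0.23 (Slc8a2) to 0.15 (Mcu) with a median of 0.03, against −0.01 over all genes tested. Leaving out control replicate 2 and EV replicate 1 together, an alternative added after seeing the data, gave 1 gene with an unadjusted p under 0.05, Slc8a2 (−0.43, adjusted p = 0.732, 6.32% of all genes in that fit).

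For the 3-100 kDa proteins against control, 0 of the 10 passed the adjusted threshold in limma (3.31% of 12788 genes did). At an unadjusted p under 0.05 there were 4, Atp2b1 and Mcu at a higher and Atp2b2 and Slc8a2 at a lower level (17% of all genes). None reached 1.5-fold on the fitted scale (10% of all genes did with an unadjusted p under 0.05). The libraries did not overlap on TPM as deposited for 5, the same 4 and Slc8a3 (20.6% of all genes), and on rescaled TPM for 3, Atp2b1, Mcu and Slc8a2 (23.6%). The median difference was −0.16, against −0.02 over all genes tested. The number with an unadjusted p under 0.05 was 2, Atp2b2 and Mcu, on TPM as deposited (14.5% of all genes in that fit). It was 3, without Atp2b1, both with no mean-variance trend (17.1%) and with the replicate number as a block (13.9%). It was 1 without control replicate 1 (12.3% of all genes) or 3-100 kDa replicate 2 (10.7%). It was 2 without control replicate 3 (15.6%), 3-100 kDa replicate 1 (18.5%) or 3-100 kDa replicate 3 (10.8%). Mcu was counted in each of these fits that left out a library. A single gene of the 10 reached 1.5-fold without control replicate 2 (11.1% of all genes), control replicate 3 (11.4%) or 3-100 kDa replicate 3 (8.29%).

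For total secretome against control, 0 of the 10 passed the adjusted threshold in limma (1.97% of 12787 genes did). Atp2b2 alone had an unadjusted p under 0.05 (16.2% of all genes) and it also passed 1.5-fold (8.09%). The libraries did not overlap on TPM as deposited for Atp2b1 and Mcu (20.2%), and on rescaled TPM for Atp2b2 alone (24%). The median difference was −0.26, against −0.01 over all genes. With the replicate number as a block, 2 genes had an unadjusted p under 0.05 (18.7% of all genes in that fit), Atp2b2 (−0.59, adjusted p = 0.0875) and Slc8a2 (−0.35, adjusted p = 0.226). There was none without control replicate 1 (12.05% of all genes in that fit) or total secretome replicate 2 (9.40%), there were 2 without total secretome replicate 1 (14.0%) and 3 without control replicate 2 (27.8%). Without control replicate 3 the count stayed at 1 (16.1%), but the gene was Atp2b1 in place of Atp2b2, and in the fit of all 12 libraries both had an unadjusted p under 0.05 (16.8%). The count past 1.5-fold was 0 without control replicate 1 (7.996% of all genes), control replicate 3 (9.25%) or total secretome replicate 2 (6.29%), and 2 without control replicate 2 (10.9%). The 3 comparisons with control share the same control libraries, so their values are set side by side and are not independent of each other.

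**Figure D3:**
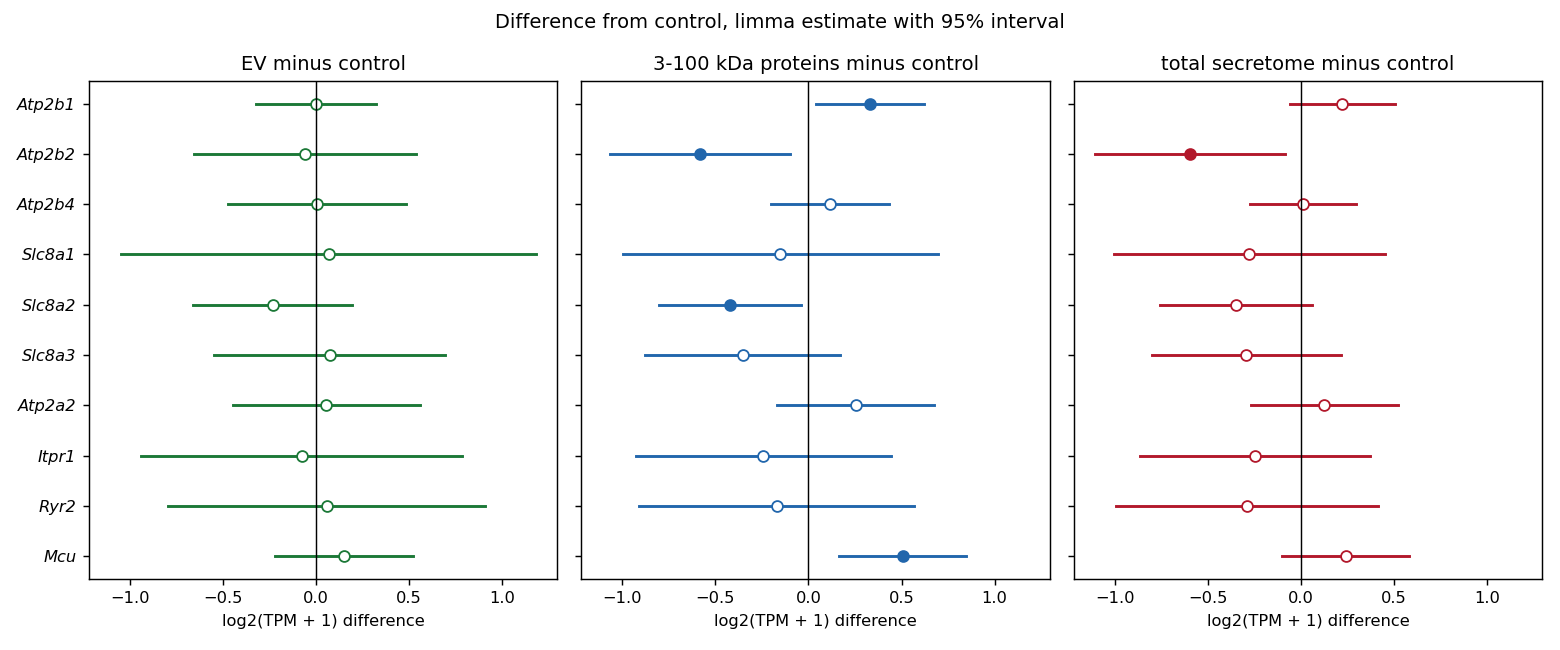
Difference of each treated group from control on the log2(TPM + 1) scale (horizontal axis) for the 10 genes, as the limma estimate (point) with its 95% interval (line). The fits are those without the replicate number as a block. Filled points have an unadjusted p under 0.05 (0 for EV, 4 for 3-100 kDa proteins, 1 for total secretome), and none passed adjustment over all genes.

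The treated groups were also compared with each other. Between EV and 3-100 kDa proteins, 0 of the 10 passed the adjusted threshold in limma (0.534% of 12734 genes did) and 3 had an unadjusted p under 0.05 (9.34%). These were Atp2b1 (−0.32, adjusted p = 0.371) and Mcu (−0.34, adjusted p = 0.378), lower with EV, and Atp2b2 (0.54, adjusted p = 0.474), higher with EV, and in these 3 the libraries did not overlap on TPM as deposited (14.2%). On rescaled TPM there were also 3, with Slc8a3 in place of Atp2b2 (16.4%). With the replicate number as a block there were 4 (21.1% of all genes in that fit), the added gene being Slc8a3 (0.44, adjusted p = 0.173), and the adjusted p was 0.0988 for Atp2b1, 0.103 for Mcu and 0.0745 for Atp2b2. On TPM as deposited there was 1 (7.66%). Without the block, the count was 0 without EV replicate 2 (7.15% of all genes), 3-100 kDa replicate 1 (8.90%) or 3-100 kDa replicate 2 (5.27%). It was 1 without 3-100 kDa replicate 3 (5.42%), 2 without EV replicate 3 (8.37%) and 5 without EV replicate 1 (14.1%). No gene of the 10 combined an unadjusted p under 0.05 with 1.5-fold in these comparisons between treated groups, but without EV replicate 1 there were 3 against 3-100 kDa proteins (6.80% of all genes in that fit) and 3 against total secretome (7.06%), and without 3-100 kDa replicate 3 there was 1 for EV against 3-100 kDa proteins (4.16%).

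Between EV and total secretome, 0 passed the adjusted threshold in limma (0.188% of 12758 genes). Atp2b2 had an unadjusted p under 0.05 (0.55 higher with EV, adjusted p = 0.600, 7.7% of all genes), and the libraries did not overlap for Atp2b1 alone on TPM as deposited (11.8%) and for Atp2b1 and Atp2b2 on rescaled TPM (14.4%). Without EV replicate 1 there were 6 with an unadjusted p under 0.05 (22.0% of all genes in that fit), Atp2b1, Atp2b2, Itpr1, Ryr2, Slc8a1 and Slc8a3, and there was none with no mean-variance trend (7.89%), without EV replicate 2 (5.94%) or 3 (6.64%), or without any 1 of the total secretome libraries (3.76 to 6.43%). Between total secretome and 3-100 kDa proteins, 0 passed the adjusted threshold in limma (0.0157% of 12713 genes), and Mcu had an unadjusted p under 0.05 (−0.26, adjusted p = 0.9999, 2.64% of all genes) with no overlap between libraries on TPM as deposited (5.01%) or rescaled (6.53%). For Mcu in that comparison, p was above 0.05 on TPM as deposited (2.22% of all genes), with no trend (3.37%) and without 3-100 kDa replicate 3 (1.83%), total secretome replicate 1 (2.95%) or total secretome replicate 2 (2.18%), and without 3-100 kDa replicate 1 there were 3 genes with p under 0.05 (10.1% of all genes in that fit).

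How much of the variation in these genes lay within and between groups was not computed. Within a group, the coefficient of variation ran from 1.03% (Atp2b1 with EV) to 48.9% (Slc8a1 with EV). Control replicate 2 was the lowest control for 8 of the 10 genes, as it was for 40.7% of 10250 genes with a mean of at least 5 TPM, and EV replicate 1 was the lowest EV library for 8 of the 10 (46.4%). The median coefficient of variation of the 10 genes was 21.2% in control and 26.4% with EV, against 12.6% with 3-100 kDa proteins and 10.7% with total secretome. Over all genes of that level the median was 19.3, 19.9, 16.3 and 12.3% in the same order.

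Slc8a1, Itpr1 and Ryr2 varied together: over the 12 libraries, Pearson's r was 0.97 for Slc8a1 and Itpr1, 0.91 for Itpr1 and Ryr2 and 0.88 for Slc8a1 and Ryr2. Atp2b1 and Mcu followed each other at 0.82. These correlations describe libraries that share the group differences and the 2 libraries standing apart, and no p is given.

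**Figure D4:**
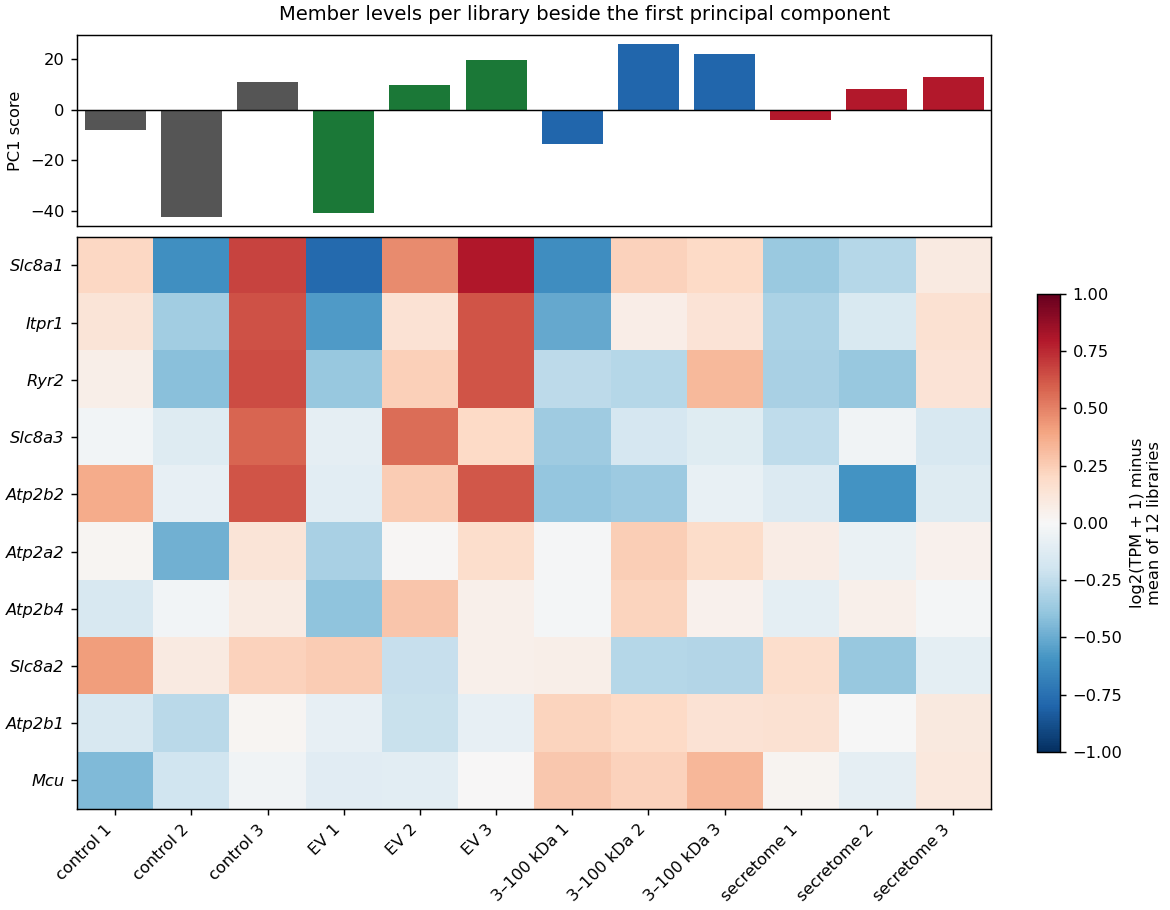
Score of each library on the first principal component (top, bars coloured by group) and log2(TPM + 1) of each of the 10 genes minus its mean over the 12 libraries (bottom, colour scale from −1 to 1). Slc8a1, Itpr1 and Ryr2 are low in control replicate 2 and EV replicate 1, the 2 libraries with scores near −40.9 and −42.5. Slc8a1 (−0.62) and Itpr1 (−0.51) are also low in 3-100 kDa replicate 1, whose score is −13.7. Mcu and Atp2b1 are high in the 3-100 kDa libraries.

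The genes whose levels over the 12 libraries were most like each of the 10 were searched among genes with a mean of at least 10 TPM. For Slc8a1 they were Grm5, Abcd3 and Zyg11b (r = 0.99 for each), for Itpr1 Nav3, Akap6 and Scai (0.98 for each), and for Ryr2 Pclo, Map1b and Rims1 (0.97 to 0.99), of which Pclo and Rims1 encode presynaptic active zone proteins. Those for Atp2b2 were Mtmr4, the sodium channel gene Scn2a and Zfp238 (0.97 for each), and those for Atp2a2 Rybp, Dclk1 and the reticulum chaperone gene Canx (0.98 to 0.99). Atp2b1 was closest to Ywhaz, Hars and Osbp2 (0.95 to 0.96), Slc8a2 to Rnf123, Atat1 and Plch2 (0.94 to 0.96) and Mcu to Ddx10, Cyp51 and Socs5 (0.92 to 0.95). Atp2b4 was closest to Arl6ip6, Nol4 and Hs2st1 (0.90 to 0.94) and Slc8a3 to Soga1, Ylpm1 and Rcbtb2 (0.90 to 0.91).

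A wider list of 61 other calcium genes (further pumps, exchangers, store partners, store-operated entry, mitochondrial transport, buffers and phospholipase C) gives the surroundings of the 10, and 60 of them were matched. Against control, 48 were tested for EV, 48 for 3-100 kDa proteins and 49 for total secretome. None passed the adjusted threshold in limma, and the number with an unadjusted p under 0.05 was 0 for EV (2.82% of all genes), 7 for 3-100 kDa proteins (6 higher, 1 lower, or 14.6% of those tested, against 17% of all genes) and 5 for total secretome (3 higher, 2 lower, or 10.2%, against 16.2%). These shares were no higher than those over all genes. The median differences were 0.01, 0.01 and −0.03.

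Counting genes past 1.5-fold whose unadjusted p was under 0.05, 3 of the 48 tested (6.25%) were higher with 3-100 kDa proteins and none was lower, against 6.63% higher and 3.39% lower of all genes. Homer1, a scaffold that links group I glutamate receptors to store channels, was at 47.8, 28.8 and 58.6 TPM in control, 35.6, 54.5 and 61.7 TPM with EV, 71.001, 140 and 97.1 TPM with 3-100 kDa proteins, and 101, 92.6 and 89.0 TPM with total secretome. It was above control in all 6 libraries of the last 2 groups, by 1.20 with 3-100 kDa proteins (0.43 to 1.97, adjusted p = 0.112) and by 1.12 with total secretome (0.53 to 1.72, adjusted p = 0.0788). The potassium-dependent exchanger gene Slc24a4 differed by 0.86 (adjusted p = 0.147) and 0.72 (adjusted p = 0.302). The store-operated channel gene Orai1 differed by 0.69 with 3-100 kDa proteins (adjusted p = 0.216) and 0.52 with total secretome (adjusted p = 0.327). Its paralogue Orai2 differed by −0.53 (adjusted p = 0.198) and −0.62 (adjusted p = 0.109). With total secretome, 4 of the 59 listed genes that were tested, Atp2b2 included, passed these criteria (6.78%, against 8.09% of all genes), and 7 passed with the replicate number as a block (8.95% of all genes in that fit). Without control replicate 2 there were 8 for total secretome (10.9% of all genes) and 5 for 3-100 kDa proteins (11.1%), and without total secretome replicate 2 there were 2 for total secretome (6.29%).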

How the data were processed

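RNA of 12 libraries of rat neuroglial culture was sequenced by the authors as mRNA. After trimming, the authors ran Salmon on rat transcripts of genome build Rnor_6.0 (rn6), and deposited 1 value for each gene in each library. The deposited values were taken as TPM, since each library sums to 1000000. TPM keeps no read depth, so no counting intervals were computed. The labels and the methods differ in the age of the pups and the sequencing platform, which the values do not decide. The methods name day as a source of variation for control and EV libraries, but the sources used here do not say which library belongs to which day, and day was not modelled.

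Rows of one gene name were summed. TPM was rescaled by median-of-ratios factors, genes were kept where 3 or more of the 6 libraries compared reached 1 TPM, and log2(TPM + 1) was tested in limma 3.58.1 (R 4.3.3) with a mean-variance trend and Benjamini-Hochberg adjustment over all genes. The thresholds were an adjusted p of 0.05, or an unadjusted p of 0.05 with a fold change of 1.5. Fold changes on this scale understate those of low genes. The fits were run on simulated data with independent noise for each gene and library. Shifts shared by many genes of a library were not simulated, so that run does not cover libraries that stand apart.

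The 10 genes, the calcium gene list and the marker lists were chosen with earlier results of these data known. Named genes were the 10, their paralogues, listed calcium genes past an unadjusted p of 0.05 and 1.5-fold against control (at most 6 per comparison, by p), and the 3 genes of highest Pearson r with each of the 10. The pump ratio, the family shares, Nefm, Tubb3, Gad1, Gfap, Pdgfrb, Flt1 and Col1a1 were added after the values were seen. One further gene is not reported here.

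Whether replicate numbers pair libraries was checked by correlating deviations from group means across genes. The correlations were above 0.1 for all 3 numbers in 4 comparisons (0.16 to 0.25 for total secretome and control, 0.29 to 0.59 for EV and 3-100 kDa proteins, 0.19 to 0.26 for EV and total secretome, 0.21 to 0.38 for total secretome and 3-100 kDa proteins), which were read as paired from the data. They were not for EV and control (−0.18 to 0.54) or 3-100 kDa proteins and control (−0.25 to 0.25). The alternatives were a pseudocount of 0.1, no filter, TPM as deposited, a fit of all 12 libraries, the replicate block, no trend, the highest row of a name, and leaving out each library. Overlap of groups was read on TPM as deposited and, an alternative chosen after seeing the data, on rescaled TPM.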

Additional observations from a re-analysis of the deposited data

How the results depend on the processing

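Of 430 results for single genes under alternatives other than leaving out 1 library, 425 kept their direction and side of the adjusted threshold. Part of this was fixed in advance. The replicate block and the fit with no trend leave the estimated differences as they are. Each of the 10 genes has 1 row, so the highest row of a name holds the same values. No main result was past the adjusted threshold, so none could be lost. With control replicate 2 and EV replicate 1 both left out, Atp2b1 (−0.0877) and Itpr1 (0.000406) in EV against control had the opposite sign, as had Atp2b4 in total secretome against control on TPM as deposited (−0.00773) and Itpr1 in total secretome against 3-100 kDa proteins in the fit of all 12 libraries (−0.00250). The fit of all 12 libraries gave 1 gene past the adjusted threshold for 3-100 kDa proteins against control, Mcu. In that comparison 1 gene, Atp2b2, passed 1.5-fold with a pseudocount of 0.1 (10.8% of all genes) and 1 with TPM as deposited (10.3%), against 0 in the main setting (10%). With the replicate number as a block (pairing), the calcium list count for total secretome against control was 7, against 4 without it. No gene of the 10 passed the adjusted threshold in any comparison with the block. No other count of the 10 genes or the calcium list past the adjusted threshold or 1.5-fold changed by more than 1.5 times. Over all genes the block did move the counts past the adjusted threshold. They went from 13 higher and 5 lower to 0 and 0 for EV against control. For 3-100 kDa proteins against control they went from 361 and 62 to 177 and 16. For EV against 3-100 kDa proteins they went from 5 and 63 to 69 and 271. For EV and for 3-100 kDa proteins against control the labels give the libraries a shared number and no shared day: 2 and 1 of the 6 libraries correlated best with their own number, and with the block 0 and 3 of the 10 genes had an unadjusted p under 0.05, against 0 and 4 without it.

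Leaving out 1 library at a time, 310 of 360 results kept direction and call, 49 changed sign and 1 passed the adjusted threshold (Atp2b2 in total secretome against control, without control replicate 2). The sign changed at least once for 27 of the 60 differences, whose ranges follow. For EV against control these were Atp2b1 −0.069 to 0.079, Atp2b2 −0.26 to 0.12, Atp2b4 −0.15 to 0.20, Atp2a2 −0.13 to 0.20, Slc8a1 −0.29 to 0.54, Slc8a3 −0.10 to 0.29, Itpr1 −0.36 to 0.24 and Ryr2 −0.20 to 0.34. For 3-100 kDa proteins against control these were Slc8a1 −0.50 to 0.15, Itpr1 −0.48 to 0.0100 and Ryr2 −0.43 to 0.11. For total secretome against control these were Atp2b4 −0.054 to 0.068, Atp2a2 −0.063 to 0.24, Slc8a1 −0.63 to 0.018 and Itpr1 −0.49 to 0.0012. For EV against 3-100 kDa proteins these were Atp2b4 −0.25 to 0.091, Slc8a1 −0.086 to 0.71 and Itpr1 −0.10 to 0.50. For EV against total secretome these were Atp2b4 −0.14 to 0.20, Atp2a2 −0.16 to 0.087, Slc8a2 −0.013 to 0.27 and Itpr1 −0.092 to 0.50. For total secretome against 3-100 kDa proteins these were Atp2b2 −0.081 to 0.15, Slc8a1 −0.39 to 0.028, Slc8a2 −0.058 to 0.22, Itpr1 −0.20 to 0.12 and Ryr2 −0.27 to 0.088.

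The counts past 1.5-fold and an unadjusted p of 0.05 among the 10 genes ran from 0 to 1 for 3-100 kDa proteins against control (8.07 to 12.5% of all genes), from 0 to 2 for total secretome against control (6.29 to 10.9%), and from 0 to 3 for EV against 3-100 kDa proteins (4.06 to 6.80%) and for EV against total secretome (2.89 to 7.06%). Those over the whole calcium list ran from 2 to 5 for 3-100 kDa proteins and from 2 to 8 for total secretome (the same shares of all genes), and the count past the adjusted threshold for total secretome against control ran from 0 to 1.

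Depth is unknown, the precision rests on 3 libraries a group, and leaving out a library leaves 5 in a fit. The causes of these changes were not tested.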
